A study of Homo sapiens with 12 samples.

Results

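The transcripts of 10 genes of the MYC, MAX and MXD network were measured in C4-2 cells after depletion of choline kinase alpha (CHKA). The genes, MYC, MYCN, MAX, MXD1, MXD3, MXD4, MXI1, MNT, MGA and MLX, were chosen by symbol, and all 10 had an Ensembl identifier among the 54127 genes counted. The filter on low counts kept 14501 genes, 9 of the 10 members among them, and left out MYCN. C4-2 is an established human prostate cancer line derived from LNCaP. The cells were reverse transfected at 50 nM with a pool of siRNAs against CHKA (labelled SiCHKA, here siCHKA) or with nontargeting siRNA (SiNTCONTROL, here siNT), and mRNA of 6 siCHKA and 6 siNT samples was read from one end over 40 bases. The knockdown was transient and used 1 siRNA pool in 1 cell line, and the labels do not say whether the 6 samples of a group came from separate cultures. The study calls its replicates biological, but describes them as triplicate experiments for its gene calls and as 6 replicates for single genes. The p-values here measure the spread between these samples and treat the 6 of a group as independent.

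MYC is a basic helix-loop-helix leucine zipper transcription factor that binds DNA as a dimer with MAX, mostly at the E-box CACGTG, and raises the expression of genes for ribosome assembly, nucleotide synthesis and growth. MAX also pairs with the MXD proteins, MXI1 (a member of the MXD family), MNT and MGA, which occupy the same sites and recruit corepressors, so that MYC and its antagonists compete for MAX and for E-boxes. MLX is the MAX-like partner of MondoA (MLXIP) and ChREBP (MLXIPL), which respond to glucose, and it also pairs with MNT and some MXD proteins. In prostate cancer MYC is commonly gained or overexpressed.

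The E-box was searched in RefSeq promoter windows (GRCh38.p14), which run from 250 bases before to 50 bases after each annotated start. CACGTG reads the same on both strands, so 1 search covered both. It was found in 2548 of 35116 windows (7.26%), and in 3 of the 14 windows of the 9 members with an entry (all but MYC), those of MXD4, MNT and MLX. These 3 stretches are shown with those of ODC1 and DDX21, genes of the MYC target lists described further on, because MYC, its antagonists and MLX all recognise this word. The capitals mark the E-box, each sequence is given 5′ to 3′ on the strand of the gene, and the E-box begins 238, 193, 50, 29 and 31 bases before the start site in MXD4, MNT, MLX, ODC1 and DDX21.
MXD4 (chr4:2262322-2262359, minus strand): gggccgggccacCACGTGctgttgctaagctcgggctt
MNT (chr17:2401228-2401273, minus strand): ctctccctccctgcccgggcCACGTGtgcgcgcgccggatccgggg
MLX (chr17:42567030-42567075, plus strand): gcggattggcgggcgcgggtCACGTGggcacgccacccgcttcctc
ODC1 (chr2:10448016-10448061, minus strand): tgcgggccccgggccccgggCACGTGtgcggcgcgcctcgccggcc
DDX21 (chr10:68956596-68956641, plus strand): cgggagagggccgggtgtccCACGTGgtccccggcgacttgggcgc
A match is a description of the letters in the window, and binding was not measured here.

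CHKA, the targeted gene and the first enzyme of the choline branch of phosphatidylcholine synthesis, was measured at 1.91 to 4.67 CPM (counts per 1000000 reads on genes, with each library scaled by TMM) in the siCHKA samples and 36.7 to 43.3 CPM in the siNT samples, so every sample matched its label. Reads on genes numbered 12158361 to 20670479 in the siCHKA and 10685184 to 24246055 in the siNT samples, and 3 counts, the limit that a count of 0 allows, correspond to 0.124 to 0.281 CPM. Reads outside any gene made up 6.70% to 8.54% of the siCHKA and 5.49% to 6.63% of the siNT reads that aligned to 1 place. Among siCHKA samples, odd-numbered and even-numbered replicates differed from each other by a root mean square of 0.309 to 0.395 in log2 CPM, more than replicates within either set (0.220 to 0.277). The labels give no reason for these sets, and values within them are given where they bear on a member. All 10 luminal prostate markers, among them KLK3, were expressed. Of 13 markers of basal, stromal, neuroendocrine, immune and endothelial cells 12 were matched and 4 passed the filter, while KRT5 had 1 read, TP63 3 reads and INSM1 0 reads over all 12 samples. Of those 4, COL1A1, KRT14 and SYP were called higher after siCHKA (75%, beside 32.1% of all tested genes). The summed level of the 12 was 38.5 to 47.0 CPM against 28.8 to 31.8 CPM after siNT, of which COL1A1 and VIM made up most. Its part in the results that follow was not tested.

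Of the 9 tested members, 4 were lower after siCHKA (MXD3, MYC, MLX and MXD4), 1 was higher (MGA) and 4 (MAX, MXD1, MXI1 and MNT) did not pass an adjusted p of 0.05 in edgeR's quasi-likelihood test. Over all tested genes 30.1% were called lower and 32.1% higher, so the members' counts stood beside a background in which most genes moved. The 6 siCHKA samples did not overlap the 6 siNT samples for 3 members (MYC, MXD3 and MLX), as for 40.6% of all tested genes. The median log2 fold change of the 9 members was −0.08, and that of all tested genes was 0.03.

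**Figure D1:**
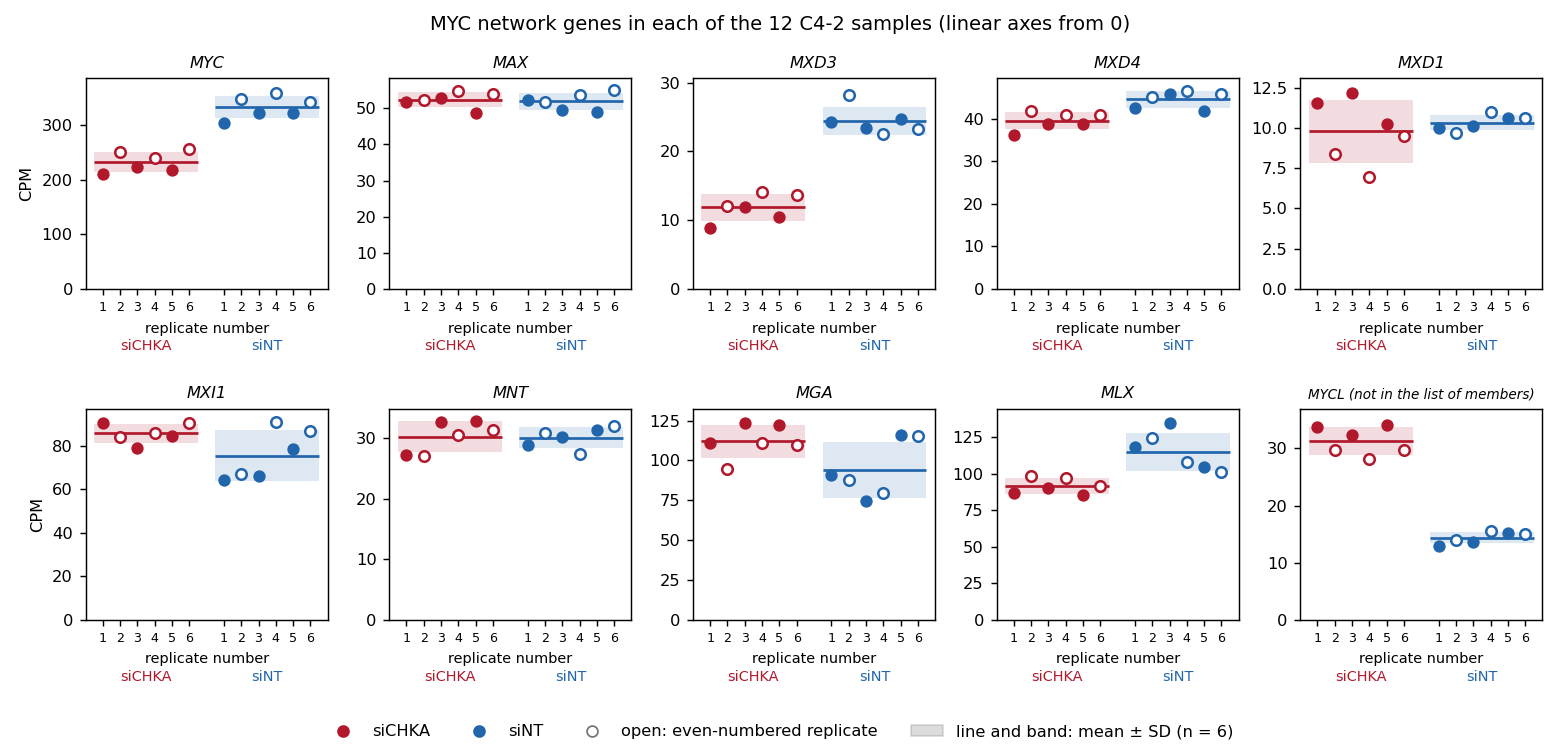
CPM of the 9 detected members and of MYCL in each sample, with siCHKA in red, siNT in blue, open points for even-numbered replicates, and the line and band giving mean ± SD of 6 samples. The 6 siCHKA samples lie below all siNT samples for MYC, MXD3 and MLX and above them for MYCL, whereas MAX and MNT overlap throughout.

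Per length of transcript, MYC was the most abundant member in the siNT samples. It reached 89.5 ± 5.54 CPM per kilobase of its Ensembl canonical transcript (SD, n = 6), followed by MLX at 48.8 ± 5.51 CPM per kilobase. MAX (25.9 ± 1.17), MXD3 (22.9 ± 1.89) and MXI1 (21.8 ± 3.34 CPM per kilobase) came next, of which MXD3 and MXI1 were closer than their spread, and the ranges of MAX and MXD3 overlapped. Their order is the one most open to the choice of length, since over all merged exons MXD3 came to 5.15, MAX to 8.31 and MXI1 to 12.8 CPM per kilobase. MXD4 followed at 11.5 ± 0.516, then MGA at 7.72 ± 1.45 and MNT at 6.12 ± 0.351, whose ranges overlapped, and MXD1 was lowest of the detected members at 1.86 ± 0.0850 CPM per kilobase. After siCHKA, MYC stood at 62.5 ± 5.02 and MLX at 38.8 ± 2.27 CPM per kilobase and kept the first and second places, whereas MXD3 (11.1 ± 1.86) came down beside MXD4 (10.2 ± 0.538).

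MYC fell to 69.8% of its level in the control cells. The siCHKA samples lay between 209 and 256 CPM with a median of 232, and the siNT samples between 304 and 360 CPM with a median of 332. The highest siCHKA sample thus lay below the lowest siNT sample. The log2 fold change was −0.52 ± 0.06 (SE; adjusted p = 1.07e-06, edgeR), and the exact permutation test gave p = 0.00216 (two-sided), the smallest that 6 against 6 samples allow. The odd-numbered siCHKA samples (209 to 224 CPM) lay below the even-numbered ones (239 to 256 CPM), and both sets lay below every siNT sample. MYC passed the test in each of 22 alternative analyses, with log2 fold changes from −0.62 to −0.43. Among the genes beside MYC, the long noncoding RNA PVT1 did not pass the test (log2 fold change −0.02, adjusted p = 0.935, edgeR). Its odd-numbered siCHKA samples, at 18.6 to 18.7 CPM, lay below all siNT samples, at 21.5 to 28.9 CPM, and its even-numbered ones, at 27.2 to 32.6 CPM, lay at the top of that range and above it. With the odd-numbered samples alone PVT1 was called lower and with the even-numbered ones alone higher. CASC11, which shares 3.18% of the exon bases of MYC on the opposite strand, was near its detection limit at 0.269 to 1.00 CPM after siCHKA and 0.530 to 0.973 CPM after siNT.

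Of the other MYC paralogs MYCN was not detected and MYCL rose. MYCN, the paralog known from neuroblastoma and neuroendocrine prostate cancer, had 0 counts in all 12 samples, which allows at most 0.124 to 0.281 CPM. MYCL, which was not among the 10 genes but belongs to the related genes listed with them, ranged from 28.2 to 34.1 CPM (median 31.1) after siCHKA and from 12.9 to 15.6 CPM (median 14.5) after siNT, without overlap. Its log2 fold change was 1.12 ± 0.07 (SE; adjusted p = 2.79e-10, edgeR). Per kilobase MYCL reached 8.88 after siCHKA against 4.09 CPM per kilobase after siNT, and it stayed below MYC, at 62.5, in the siCHKA samples.

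MAX, the obligate partner of MYC and of its antagonists, did not differ beyond the spread between samples. It was measured at 48.7 to 54.9 CPM (median 52.6) after siCHKA and 49.0 to 55.2 CPM (median 52.1) after siNT. The log2 fold change was 0.01 with a 95% interval from −0.08 to 0.11 (adjusted p = 0.797, edgeR). MAX shares 13.1% of its exon bases with FNTB on the opposite strand, which was low, at a mean of 1.04 CPM after siCHKA and 1.38 CPM after siNT.

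MXD3, an MXD family member that is expressed in cells in S phase, showed the largest change among the 9 tested members. It was measured at 8.82 to 14.2 CPM (median 12.03) after siCHKA and 22.6 to 28.2 CPM (median 23.9) after siNT. All siCHKA samples were below all siNT samples, and the mean came to 48.6% of that after siNT. On the log2 scale the change was −1.04 ± 0.10 (SE; adjusted p = 8.55e-08, edgeR), and MXD3 passed the test in all 22 alternatives, with values from −1.23 to −0.88. The odd-numbered siCHKA samples (8.82 to 11.9 CPM) lay below the even-numbered ones (12.1 to 14.2 CPM). All 15 listed proliferation genes, such as RRM2 (log2 fold change −2.62) and TOP2A (−1.51), were lower in the same samples (100%, beside 30.1% of all tested genes). Their summed level was 1410 to 1468 CPM after siCHKA and 3573 to 3993 CPM after siNT, and its part in the MXD3 result was not tested. In GRCh38 MXD3 (minus strand, chr5:177301461-177312757) shares 24.2% of its exon bases with PRELID1 on the opposite strand and 19.5% with RAB24 on its own strand. PRELID1 also fell (log2 fold change −0.23, adjusted p = 0.00646, edgeR), and RAB24 did not pass the test (0.17, adjusted p = 0.319, edgeR).

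MXD4 and MXD1, which rise in many cells that leave the cell cycle and differentiate, showed small differences. MXD4 was measured at 36.1 to 41.9 CPM (median 39.8) after siCHKA and 41.7 to 46.5 CPM (median 45.5) after siNT, so the groups touched at 1 sample of each, and its odd-numbered siCHKA samples (36.1 to 38.8 CPM) lay below the even-numbered ones (40.8 to 41.9 CPM). Its log2 fold change was −0.17 ± 0.05 (SE; adjusted p = 0.00728, edgeR). The call was lost with 1 count file per sample (−0.11, adjusted p = 0.260), with the even-numbered siCHKA samples alone (−0.12, adjusted p = 0.0703), and with replicates 1 to 3 (−0.20, adjusted p = 0.0596) or 4 to 6 (−0.17, adjusted p = 0.0995) alone. MXD1, per kilobase the scarcest antagonist, was measured at 6.97 to 12.2 CPM (median 9.86) after siCHKA and 9.72 to 10.98 CPM (median 10.4) after siNT, and it did not pass the test (log2 fold change −0.08, 95% interval −0.32 to 0.17, adjusted p = 0.582, edgeR). The even-numbered siCHKA samples, at 6.97 to 9.48 CPM, lay below every siNT sample, and the odd-numbered ones, at 10.2 to 12.2 CPM, lay among and above them. With the even-numbered siCHKA samples alone MXD1 was lower (log2 fold change −0.32, adjusted p = 0.0108, edgeR), and with the odd-numbered ones alone the estimate was 0.15.

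MXI1, next to MXD3 the most abundant antagonist per kilobase after siNT, did not pass the test. It was measured at 78.8 to 90.7 CPM (median 85.1) after siCHKA and 64.3 to 90.9 CPM (median 72.6) after siNT (log2 fold change 0.18 ± 0.08, SE; adjusted p = 0.0582, edgeR). The siNT samples fell into replicates 1 to 3 at 64.3 to 66.9 CPM and replicates 4 to 6 at 78.3 to 90.9 CPM, so that the former and replicate 5 lay below every siCHKA sample. With replicates 1 to 3 of both groups alone the log2 fold change was 0.36 (adjusted p = 0.00152, edgeR), and with replicates 4 to 6 alone it was 0.02 (adjusted p = 0.884). MXI1 passed the test without siCHKA replicate 3 (0.21, adjusted p = 0.0457), without siNT replicate 4 (0.23, adjusted p = 0.0143) and without siNT replicate 6 (0.22, adjusted p = 0.0270, edgeR).

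MNT, a broadly expressed antagonist that pairs with both MAX and MLX, did not differ beyond the spread between samples. It was measured at 27.1 to 32.8 CPM (median 30.9) after siCHKA and 27.4 to 32.0 CPM (median 30.6) after siNT. The log2 fold change was 0.01 with a 95% interval from −0.13 to 0.14 (adjusted p = 0.945, edgeR).

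MGA, a large protein that carries a T-box domain beside its MAX-binding domain and scaffolds a noncanonical Polycomb complex, was the one member called higher. It was measured at 94.6 to 123 CPM (median 111) after siCHKA and 74.5 to 116 CPM (median 89.5) in the controls, with overlap, since siNT replicates 5 and 6 were at 116 CPM. Its log2 fold change was 0.25 ± 0.10 (SE; adjusted p = 0.0403, edgeR), and the exact permutation test gave p = 0.0628 (two-sided). The call depended on single samples. It was lost without siCHKA replicate 1, 3, 4, 5 or 6 and without siNT replicate 1, 2, 3 or 4, with log2 fold changes from 0.18 to 0.26 and adjusted p from 0.0531 to 0.119 (edgeR). With the even-numbered siCHKA samples alone the value was 0.16 (adjusted p = 0.269), and with replicates 4 to 6 alone 0.13 (adjusted p = 0.416).

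**Figure D2:**
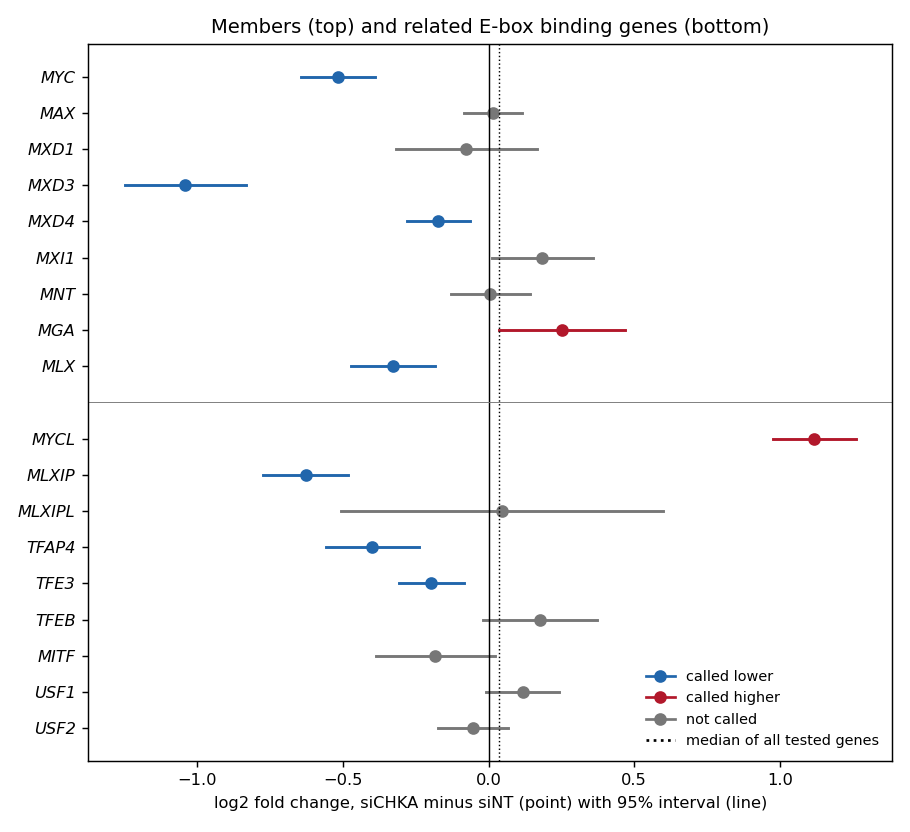
Log2 fold change of siCHKA against siNT with its 95% interval (edgeR, 6 samples a group) for the 9 tested members above and 9 related genes below, coloured by call, with the median of all tested genes as a dotted line. MXD3 (−1.04), MYC (−0.52), MLX (−0.33) and MXD4 (−0.17) are called lower, MGA (0.25) is called higher, and MYCL (1.12) lies farthest to the right.

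MYC was then set against its antagonists within each sample, as the log2 ratio of length-scaled CPM. The ratio of MYC to the sum of MXD1, MXD3, MXD4, MXI1, MNT and MGA was −0.02 ± 0.09 (SD, n = 6) after siCHKA and 0.31 ± 0.07 (SD, n = 6) after siNT. The siCHKA samples ranged from −0.11 to 0.13 and the siNT samples from 0.22 to 0.39. With canonical transcript lengths MYC was thus about level with the 6 antagonists after siCHKA and 1.24 times as abundant after siNT. Both these levels and the difference of −0.33 depended on how the antagonists were weighted, and the difference was −0.57 for CPM without length scaling. MXD3 moved the ratio the other way, and without it the difference was −0.61, with ratios of 0.11 to 0.43 after siCHKA and 0.74 to 1.02 after siNT.

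Taken one antagonist at a time, the ratio was lower after siCHKA for 5 of the 6 and higher for MXD3. As geometric means over samples, MYC was 4.14 times as abundant as MXI1 after siNT and 2.52 times after siCHKA. MYC over MGA went from 11.7 to 6.81 times, a difference in the log2 ratio of −0.79 that was the largest of the 6, and MYC over MNT went from 14.6 to 10.1 times. For MXD4 the ratios were 7.75 after siNT and 6.09 after siCHKA. MYC over MXD3 instead went from 3.90 to 5.62 times. The groups did not overlap for these 5 antagonists, and they did for MXD1, where the log2 ratio was 4.74 to 5.66 after siCHKA and 5.49 to 5.72 after siNT. These ratios reuse the MYC values in each comparison, are of transcripts and not of proteins, and are given as descriptions without a test.

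MLX and its partner MondoA both fell. MLX was measured at 85.5 to 98.5 CPM (median 90.9) after siCHKA and 101 to 135 CPM (median 113) after siNT, without overlap, with a log2 fold change of −0.33 ± 0.07 (SE; adjusted p = 0.000470, edgeR). The siNT samples split as they did for MXI1 but the other way round, with replicates 1 to 3 at 118 to 135 CPM and replicates 4 to 6 at 101 to 108 CPM. MLX passed the test with either set of replicates alone, and its change was smallest with replicates 4 to 6 (−0.20, adjusted p = 0.0401, edgeR). Among siCHKA samples the odd-numbered ones (85.5 to 89.9 CPM) lay below the even-numbered ones (91.9 to 98.5 CPM). In GRCh38 MLX (plus strand, chr17:42567072-42573239) shares 18.2% of its exon bases with PSMC3IP on the opposite strand, a recombination factor gene that also fell (log2 fold change −2.29). Whether the reads were counted by strand is not given in the sources used here. PSMC3IP itself was counted at a mean of 3.11 CPM after siCHKA and 15.3 CPM after siNT, while MLX had means of 91.7 and 115 CPM.

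MLXIP (MondoA), the glucose-responsive partner of MLX, was measured at 43.99 to 54.3 CPM (median 49.0) after siCHKA and 67.6 to 86.3 CPM (median 73.4) after siNT. All siCHKA samples lay below all siNT samples, and the log2 fold change was −0.63 ± 0.07 (SE; adjusted p = 5.59e-07, edgeR). MLXIPL (ChREBP), its relative in liver and fat, was low at 2.82 to 8.10 CPM after siCHKA and 2.88 to 7.28 CPM after siNT and did not pass the test, although it was called in opposite directions with the odd-numbered and the even-numbered siCHKA samples alone. Of 8 listed MondoA and MLX target genes 7 were matched and 6 tested, of which 3 were lower (50.0%, beside 30.1% of all tested genes) and 1 higher (16.7%, beside 32.1%). G6PC3, a glucose-6-phosphatase subunit (log2 fold change −1.07), the arrestin-domain gene ARRDC3 (−0.79) and the glycolytic regulator PFKFB3 (−0.38) fell, its relative PFKFB2 (0.49) rose, and ARRDC4 (0.26, adjusted p = 0.321) and KLF10 (0.14, adjusted p = 0.0778) did not pass. ARRDC4 was split by the sets of siCHKA samples, with the odd-numbered at 33.97 to 43.00 CPM above and the even-numbered at 15.9 to 17.7 CPM below all siNT samples, at 21.4 to 24.4 CPM. It was called higher with the odd-numbered samples alone (0.76) and lower with the even-numbered ones alone (−0.47), and KLF10 was called higher with the odd-numbered ones (0.27) and without siCHKA replicate 2 (0.17) or 6 (0.18). With the odd-numbered samples all 6 targets were thus called, 3 of them higher. TXNIP, a known target of MondoA, had no matching identifier and was not analysed here.

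Of the remaining related E-box binding factors 2 fell. TFAP4 (AP-4), itself a known MYC target, was measured at 12.99 to 17.8 CPM (median 16.9) after siCHKA and 20.4 to 22.6 CPM (median 21.3) after siNT, without overlap (log2 fold change −0.40, adjusted p = 0.000202, edgeR). TFE3, a regulator of lysosomal genes, fell slightly (−0.20, adjusted p = 0.00364), with overlap between the groups. USF1 (0.12), USF2 (−0.05), TFEB (0.18) and MITF (−0.18) did not pass the test, with adjusted p from 0.0996 to 0.432 (edgeR). Of these 9 related genes 3 were thus lower (33.3%, beside 30.1% of all tested genes) and 1, MYCL, was higher (11.1%, beside 32.1%), so the share called lower was near the background. Without siNT replicate 1 USF1 was called higher.

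Genes known to set the stability of MYC protein were called in both directions. Of 18 genes listed for MYC stability 10 were lower (55.6%, beside 30.1% of all tested genes) and 5 higher (27.8%, beside 32.1%), with a median log2 fold change of −0.33. SKP2, a ubiquitin ligase subunit that acts on MYC, fell, with 21.7 to 30.8 CPM after siCHKA and 122 to 136 CPM after siNT (log2 fold change −2.27, adjusted p = 6.23e-14, edgeR). CIP2A, which protects MYC from dephosphorylation (−1.46), AURKA, which stabilises MYC proteins (−1.25), and the deubiquitinase USP28 (−1.12) also fell. The ubiquitin ligase subunit FBXO32 (1.82), the ubiquitin ligase STUB1 (0.36), the nucleolar deubiquitinase USP36 (0.32) and FBXW7, the ligase subunit that marks phosphorylated MYC for degradation (0.39), rose. FBXO32 was low, at 5.93 to 7.98 CPM after siCHKA and 1.62 to 2.48 CPM after siNT. FBXW7 overlapped between the groups, at 18.7 to 27.3 CPM after siCHKA and 13.2 to 19.3 CPM after siNT. Its call was lost with the even-numbered siCHKA samples alone and with replicates 4 to 6 alone. The list thus holds stabilising and destabilising genes in both directions, and MYC protein was not measured in these data. These changes stood beside the fall of all 15 proliferation genes, and the part of cell division in them was not tested.

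Partners that MYC uses on chromatin were mostly not called. Of 18 listed MYC coactivators 4 were lower (22.2%, beside 30.1% of all tested genes), 2 were higher (11.1%, beside 32.1%) and 12 did not pass, with a median log2 fold change of 0.01. ACTL6A, an actin-related subunit of chromatin remodelling complexes (−0.70), the elongation kinase CDK9 (−0.18) and WDR5, which contacts MYC directly (−0.14), fell, and DMAP1 (0.36) and SMARCB1 (0.17) rose. CDK9 lost its call without siCHKA replicate 2 or 6 or siNT replicate 2.

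Corepressors of the antagonists were called lower more often than higher. Of 16 genes listed for the SIN3 and HDAC complexes that MXD proteins and MNT recruit, 8 were lower (50.0%, beside 30.1% of all tested genes) and 1 was higher (6.25%, beside 32.1%), with a median log2 fold change of −0.19. The deacetylase HDAC1 (−0.34), the histone chaperone RBBP4 (−0.37) and the SIN3 subunits SAP30 (−0.58) and ARID4A (−0.52) fell, and the SIN3 subunit SUDS3 (0.42) rose. Of 14 genes listed for the MGA complex 10 were lower (71.4%) and 2 higher (14.3%), beside the same background, with a median of −0.30. Among them the chromobox gene CBX1 fell, with 105 to 126 CPM after siCHKA and 195 to 251 CPM after siNT (−0.94), RING1 fell by 0.49 and TFDP1 fell by 0.35 on the log2 scale, whereas TFDP2 (0.27) and L3MBTL2 (0.27) rose. HDAC1 is among the genes that belong to both lists, and WDR5 belongs to the lists of the MGA complex and of MYC coactivators.

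Of 20 listed germ-cell genes, which the MGA complex keeps silent in other cells, 11 did not pass the filter on low counts. Of the 9 that did, 3 were called higher (33.3%, beside 32.1% of all tested genes) and 1 lower (11.1%, beside 30.1%), so the share called higher was near the background. MEIOC, a meiotic regulator (log2 fold change 0.80), and ZCWPW1, a histone reader of meiosis (0.68), were higher at means of 2.69 and 1.70 CPM after siCHKA against 1.51 and 1.10 CPM after siNT, and their ranges overlapped. TDRKH, a piRNA pathway gene that was well expressed, was higher at a mean of 55.4 against 44.7 CPM (0.31), and TDRD1 was lower at 0.636 against 1.23 CPM (−0.95). TDRD1 passed the filter through the siNT samples and would not have in the siCHKA samples alone, so its call adds no support. ZCWPW1 was at 1.93 to 2.55 CPM in the even-numbered siCHKA samples. Its odd-numbered ones, at 1.13 to 1.29 CPM, lay within the siNT range of 0.728 to 1.37 CPM. Its call was lost with the odd-numbered siCHKA samples alone and with replicates 1 to 3 or 4 to 6 alone. It was also lost without siCHKA replicate 2 or siNT replicate 2. SOHLH2, a germ-cell transcription factor gene, was measured at 17.2 to 22.9 CPM over all 12 samples and did not pass the test (0.05, adjusted p = 0.569, edgeR).

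MYC-induced genes were mostly lower. Of 40 listed ribosome biogenesis genes 39 were matched and tested, and 26 of them were lower (66.7%, against 30.1% of all tested genes). In this list 1 was higher (2.56%, beside 32.1%) and 12 did not pass, with a median log2 fold change of −0.26. TCOF1, which couples ribosomal RNA transcription to processing, fell, with 55.9 to 68.0 CPM after siCHKA and 135 to 160 CPM after siNT (−1.25, adjusted p = 2.37e-11, edgeR). DKC1, the pseudouridine synthase of small nucleolar particles (−0.67), the RNA helicase DDX21 (−0.65) and the small-subunit factor NOP14 (−0.52) fell likewise, and PES1, a large-subunit factor, was higher (0.17, adjusted p = 0.0202, edgeR). The call of PES1 was lost without siCHKA replicate 3 or 5, without siNT replicate 1 or 6, with no expression filter, and with replicates 4 to 6 or the even-numbered siCHKA samples alone (0.06, adjusted p = 0.401, edgeR).

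Of 40 listed metabolic and growth genes of MYC 39 were tested. Of these 32 were lower (82.1%, beside 30.1% of all tested genes) and 0 were higher (beside 32.1%), with a median of −0.35. DESeq2 also called 0 higher, 0 were higher at an unadjusted p below 0.05 in edgeR, and the largest value was 0.13, for HK2 (adjusted p = 0.219). With replicates 1 to 3 alone 28 were lower and 1 was higher, HK2, a hexokinase gene (0.34, adjusted p = 0.00177, edgeR). Over all genes that subset called 3730 lower and 3720 higher of 14737 tested. ODC1, the rate-limiting enzyme of polyamine synthesis and a classical MYC target, was measured at 320 to 349 CPM after siCHKA and 836 to 1141 CPM after siNT, without overlap (log2 fold change −1.53, adjusted p = 6.94e-12, edgeR). EIF5A, a translation factor modified from spermidine (−1.20), the transferrin receptor gene TFRC (−0.98) and the translation initiation factor EIF2S1 (−0.82) fell as well. These changes stood beside the fall of all 15 proliferation genes (median log2 fold change −1.50), and the part of cell division in the target counts was not tested. In RNA taken from many cells together, fewer cells in cycle and less RNA per cell cannot be told apart.

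Genes that MYC is known to repress moved in both directions. Of 18 listed 17 were tested, 8 were higher (47.1%, beside 32.1% of all tested genes) and 4 lower (23.5%, beside 30.1%), with a median of 0.28. CDKN1A (p21) rose, with 66.3 to 110 CPM after siCHKA and 44.8 to 52.4 CPM after siNT (log2 fold change 0.81, adjusted p = 6.53e-06, edgeR). CDKN2B (p15), also a cell cycle inhibitor, was higher, with 1.39 to 2.85 CPM after siCHKA and 0.300 to 0.973 CPM after siNT (1.97). It passed the filter on low counts through the siCHKA samples and would not have in the siNT samples alone. The same holds for CEBPA, also among the 8, so these calls add no support to the count. ZFP36L1 (0.49), which destabilises mRNA, and the transcription factor gene KLF6 (0.53) rose. The matrix gene THBS1 (−0.72), the integrin gene ITGB1 (−0.44), PDGFRB (−1.46) and CLU (−0.45) fell. CLU, the gene of the chaperone clusterin, was low in the even-numbered siCHKA samples, at 22.9 to 24.9 CPM, whereas the odd-numbered ones, at 37.9 to 47.7 CPM, overlapped the siNT samples, at 40.01 to 51.1 CPM. Its call was lost with DESeq2 (adjusted p = 0.0575), with replicates 4 to 6 alone, and without siCHKA replicate 2, 4 or 6 or siNT replicate 2 or 3, which in each case left 3 genes of the list lower. It was also lost with the odd-numbered siCHKA samples alone (−0.06).

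MYC targets were lower both with and without an E-box in the promoter window. CACGTG was present for 14 of 32 ribosome biogenesis genes and 17 of 34 metabolic and growth genes with a window, compared with 2396 of 27305 genes with a window (8.77%). These lists are of known MYC targets, so the letters are no independent finding. Of the ribosome biogenesis genes 9 of 14 with the E-box, among them DDX21, and 10 of 18 without it were lower, with medians of −0.26 and −0.25. Of the metabolic and growth genes 12 of 17 with the E-box, among them ODC1, and 16 of 17 without it were lower, with medians of −0.35 for both. Among all tested genes with a window 34.9% of 1351 with and 32.5% of 9243 without the E-box were lower. Of the members with an E-box, MLX and MXD4 were lower and MNT was not called.

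Within the groups, the genes whose log2 CPM followed MYC most closely over the 12 samples were HES6 (Pearson r = 0.93 after centring each group on its mean), EGFL7 (0.92), PDIA4 (0.91), CYB561 (0.91) and HOXB13 (0.91), out of 9628 genes that averaged 10 CPM or more. Among members MXD4 was nearest (0.84), followed by MXD3 (0.61), MAX (0.53) and MXI1 (0.41). MXD1 (−0.44) and MGA (−0.27) ran opposite, and MLX (0.14) and MNT (−0.07) were near 0. These correlations share the 12 libraries, and the odd and even sets of siCHKA samples, which did not overlap for MYC, MXD1, MXD3, MXD4 and MLX, enter them, so they are given as a description.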

How the data were processed

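RNA from 12 samples of C4-2 cells was sequenced. Per the labels and the study's methods, the authors aligned it to GRCh37 with TopHat 2.0.4 and assigned reads to Ensembl genes with HTSeq 0.5.3p9. They deposited raw counts, in 4 count files per sample that were summed here. Reads that align more than once or lie on overlapping genes are left out by that counter. The members and gene lists were chosen with earlier results of these data known. Of the identifiers in the files 82.8% (98.4% of reads) matched GENCODE release 44, whose GRCh38 positions are printed.

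Differences were tested in R 4.3.3 by edgeR 4.0.16 over 14501 genes (filterByExpr, TMM, quasi-likelihood test, no covariates), with a Benjamini-Hochberg adjusted p below 0.05 as the call. Log2 CPM used a prior count of 2, and each SE was derived from the F statistic. Permutation tests were exact. Per-length levels used the Ensembl canonical transcript. At 10685184 to 24246055 reads per sample, the 3-count floor covers counting error only. The 95% intervals come from the edgeR fit and include the spread between samples. On simulated counts 92 of 100 genes changed 2-fold and 55 of 100 changed 1.3-fold were recovered, with 8 false calls over 14350 genes. The simulation changed few genes and held no sets of replicates, whereas most genes were called in the data, so these rates need not hold there.

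The text names all members, all related E-box genes, at most 4 genes of each list in each direction by smallest p plus those that give a range, and the 5 genes most like MYC. Genes that overlap members were added for their shared exons. Some genes that the rule names are not reported here. The alternatives were RLE normalization, DESeq2 1.42.0, other count filters, 1 count file per sample, a replicate block, subsets of replicates, each sample left out, and other length scalings.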

Additional observations from a re-analysis of the deposited data

Results flagged for a closer look

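In 1 of 32 groups of 6 values examined, 1 sample stood apart from the others by Dixon's criterion, where chance alone gives about 1.6 such groups. The log2 ratio of MYC to MNT in siNT replicate 4 was 4.11, against 3.76 to 3.89 in the other siNT samples, a gap of 0.626 of the range. In that sample MYC was the highest and MNT the lowest of the siNT samples. The siCHKA samples lay at 3.12 to 3.60, below every siNT sample.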

How the results depend on the processing

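MYC, MXD3 and MLX were called lower in all 22 alternatives, and MAX and MNT were called in none. With each sample left out in turn, log2 fold changes ranged from −0.55 to −0.49 for MYC, −1.10 to −0.97 for MXD3, −0.37 to −0.29 for MLX, −0.19 to −0.15 for MXD4, 0.13 to 0.23 for MXI1 and 0.18 to 0.32 for MGA. MXD4 lost its call with replicates 1 to 3 (−0.20), replicates 4 to 6 (−0.17), the even-numbered siCHKA samples (−0.12) or 1 count file per sample (−0.11). MGA lost its call with the even-numbered siCHKA samples (0.16) or replicates 4 to 6 (0.13), and MXI1 passed with at least 10 counts in every sample (0.21), replicates 1 to 3 (0.36) or 1 count file per sample (0.23). MXD1 passed with the even-numbered siCHKA samples (−0.32). The subsets hold fewer samples, and the other causes were not tested. The ratio of MYC to its 6 antagonists differed by −0.57 without length scaling, by −0.49 over merged exons and by −0.26 with the even-numbered siCHKA samples, its range over all alternatives being −0.57 to −0.26, against −0.33.

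Counts of called genes changed by more than 1.5 times for 4 lists. They were 3 MYC coactivators (ACTL6A, DMAP1 and WDR5) with replicates 1 to 3, against 6 in all samples. They were 2 germ-cell genes, against 4, with replicates 1 to 3 (TDRD1 and TDRKH), replicates 4 to 6 (TDRD1 and MEIOC), 1 count file per sample (MEIOC and TDRKH) and at least 10 counts in every sample (ZCWPW1 and TDRKH). With 1 count file per sample TDRD1 and ZCWPW1 did not pass the filter, so they were not tested. The same holds for TDRD1 and MEIOC with at least 10 counts in every sample. Beside MYC, 1 gene (PVT1) was called lower with the odd-numbered and higher with the even-numbered siCHKA samples, against 0. With replicates 1 to 3 and with 1 count file per sample 1 marker of other cell types (COL1A1) was called, against 3. With 1 count file per sample KRT14 and SYP did not pass the filter, so they were not tested. Over the 22 alternatives 22 to 30 ribosome biogenesis genes, 26 to 32 metabolic and growth genes and all 15 proliferation genes were called.

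Same-numbered samples deviated together no more than others (mean r −0.04 against 0.01, over 0.1 in 2 of 6 pairs). With 6 pairs this cannot show that the samples were unpaired by design. With a replicate block MXI1 passed the test (0.19, adjusted p = 0.0320, edgeR), and no other member's call changed.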
